A study of Mus musculus with 43 samples.

Results

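Small RNAs of the luminal fluid of the cauda epididymis were compared with those of the caput epididymis in wild-type (WT) FVB mice. The caput is the first and the cauda the last segment of the duct in which sperm mature, so that the comparison describes how the RNA outside the sperm changed along a normal duct. It took the 3 WT cauda and the 3 WT caput fluid libraries, 6 of the 18 fluid libraries and of the 43 libraries of the series. The remaining fluid libraries were of WT corpus and of the 3 segments of Rnase9-12 KO mice, which lack 4 epididymal genes of the ribonuclease A family. Both groups compared were untreated males of 8 to 12 weeks that carried no deletion, and each library held the pooled RNA of 3 mice. The luminal contents were let out of the tissue into a culture medium, and debris, sperm and extracellular vesicles were removed by centrifugation before RNA was extracted. The libraries were made with OTTR-seq, a template-jumping method, after treatment with polynucleotide kinase, which removes the end phosphates that ribonucleases leave on cleaved RNA. The titles and descriptions name the caput libraries as caput, whereas the section entry of all 6 caput fluid libraries, WT and KO, names the cauda. The title was followed here, and the direction of each difference rests on it.

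Of the 3178 RNAs listed for fluid, 2932 had a count in at least 1 of the 6 libraries, and 2023 passed a filter on low counts. Summed counts were 8117232, 6072858 and 8274251 in the caput and 12320922, 10206828 and 8878655 in the cauda libraries. Reads that fitted several features equally well were counted on all of them, so that these sums exceed the reads. Replicates of a segment correlated with a Pearson coefficient of 0.961 to 0.981 across RNAs on the log2 scale. Levels are CPM, counts scaled to a common library total with edgeR's TMM factors, which ran from 0.81 to 1.11 except for the third cauda library, at 0.66. CPM are relative to the other RNAs of a library, and in such a bulk sample fewer cells of a type and less RNA per cell cannot be told apart. The epithelial markers Mir200a, Mir200b, Mir200c, Mir141, Mir429 and Mir205 summed to 111 to 194 CPM in caput and to 88.1 to 146 CPM in cauda fluid, and 0 of the 6 were called by edgeR or DESeq2 (1 at an unadjusted p under 0.05).

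Transfer RNAs (tRNAs) carry amino acids to the ribosome and are cut by ribonucleases, often in the anticodon loop, into a 5′ and a 3′ piece called tRNA fragments (tRFs). The epididymal lumen is rich in tRFs and in ribosomal RNA fragments (rsRNAs), and sperm gain small RNAs as they pass along it. MicroRNAs, the scaffold-like Y RNAs, the spliceosomal snRNAs, the snoRNAs that guide modification of rRNA, 7SK RNA (which holds a transcription factor inactive) and 7SL RNA (the RNA of the signal recognition particle) are among the other small RNAs that are found outside cells.

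The sequences on which the main tRF and Y RNA differences turn are shown here with the anticodon of each tRNA in capitals, near which tRNAs are often cut. They were read from RefSeq and GENCODE sequences of GRCm38. The counts are per tRNA isodecoder, and the genomic genes were not matched to the isodecoder numbers, so that each is 1 gene with that anticodon. The tRNA-Val-CAC gene n-TVcac9 lies on the minus strand at chr13:23446142-23446214, around the start of Gm46404, and the tRNA-Ala-AGC gene n-TAagc16 on the plus strand at chr13:21222586-21222657, around the start of Gm32420. The tRNA-Arg-TCG gene n-TRtcg5 lies on the plus strand at chr7:79466419-79466491, around the start of Polg, and the tRNA-Pro-TGG gene n-TPtgg2 on the plus strand at chr11:67291139-67291210, within an exon of a retained-intron transcript of Myh8. The Y RNA genes Rny1 and Rny3 lie near each other, on the minus strand at chr6:47788069-47788180 and on the plus strand at chr6:47781624-47781725.
n-TVcac9: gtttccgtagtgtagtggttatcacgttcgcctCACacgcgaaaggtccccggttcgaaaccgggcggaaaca
n-TAagc16: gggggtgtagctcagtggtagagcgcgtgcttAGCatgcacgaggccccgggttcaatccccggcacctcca
n-TRtcg5: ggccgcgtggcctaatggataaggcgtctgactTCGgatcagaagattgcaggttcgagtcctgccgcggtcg
n-TPtgg2: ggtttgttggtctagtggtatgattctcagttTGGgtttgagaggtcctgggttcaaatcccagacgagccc
Rny1: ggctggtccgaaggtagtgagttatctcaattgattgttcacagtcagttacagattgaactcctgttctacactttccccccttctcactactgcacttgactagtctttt
Rny3: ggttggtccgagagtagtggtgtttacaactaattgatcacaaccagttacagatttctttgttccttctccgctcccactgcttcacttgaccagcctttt

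The fluid changed broadly between the segments. Valine 5′ tRFs, miR-16, the U5 snRNA gene Rnu5g and the 5.8S rRNA were higher in cauda fluid, whereas alanine, arginine and tryptophan 5′ tRFs, Y RNA Rny3, 7SK RNA and miR-204 were lower. An RNA was called where the p of edgeR's quasi-likelihood test, adjusted by Benjamini and Hochberg's method, was under 0.05 and its level differed by more than 1 on the log2 scale, and 508 of 2023 RNAs (25.1%) were. Of these, 196 (9.69% of those tested) rose and 312 (15.4%) fell from caput to cauda. In 486 of the 508, the 3 cauda libraries all lay on 1 side of the 3 caput libraries, which follows in part from how these RNAs were picked. Over all RNAs, the cauda libraries lay wholly above the caput libraries for 333 (16.5%) and wholly below for 538 (26.6%). Because similar RNAs share reads, 432 listed RNAs had the same counts as another one. Counted once each, 185 RNAs rose and 286 fell of 1871. The split depended on the scaling. The median log2 fold change of all RNAs was -0.17, and with TMM factors from other RNAs, that is without tRNA and rRNA entries, it was 0.21 and 313 RNAs rose and 192 fell, while with DESeq2 size factors 253 rose and 268 fell. Without 1 caput library, 107 to 115 RNAs rose and 147 to 163 fell, and without cauda library 1 or 3, 180 or 158 fell. Each class is therefore read beside the median of all RNAs.

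The classes differed in their medians, and the shares called are read beside the 9.69% of all RNAs that rose and the 15.4% that fell. Among fragment and gene entries, 27 of 183 5′ tRFs rose (14.8%) and 67 fell (36.6%), with a median log2 fold change of 0.09. Of 180 3′ tRFs, 21 rose (11.7%) and 24 fell (13.3%), near the shares of all RNAs (median 0.24). Of 198 tRFs that ended at neither tRNA end, 29 rose (14.6%) and 6 fell (3.03%, median 0.32). Of 230 microRNA genes with a Mir name, 33 rose and 12 fell (median 0.55). Many of the 33, among them the miR-34, miR-196 and X-chromosome genes described below, had few counts in caput fluid. They passed the filter on low counts only through libraries in which they were high, and some are copies with the same counts. The split of the Mir genes is therefore given as a description. Of 45 microRNA entries with a Gm name, 1 rose and 20 fell (median -1.75). Over all 275 microRNA entries tested, 34 rose and 32 fell (median 0.26). snRNA entries had a median of -0.81, with 11 of 185 higher (5.95%) and 26 lower (14.1%, near the share of all RNAs). The misc_RNA entries, of which 47 were matched to 7SK by sequence, had a median of -1.97, with 2 of 98 higher (2.04%) and 57 lower (58.2%). The 28S repeats lay to the other side, at a median of 0.74, with 39 of 100 higher and 4 lower. The splits of tRFs depended on the scaling. With TMM factors from other RNAs 42 5′ tRFs rose and 45 fell and 36 3′ tRFs rose and 12 fell, with DESeq2 size factors 37 and 61 and 30 and 20, and with library sizes alone 15 3′ tRFs rose and 29 fell. The median of the 5′ tRFs lay between 0.01 and 0.52 and that of the Mir genes between 0.55 and 0.89 under the 4 scalings compared.

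**Figure D1:**
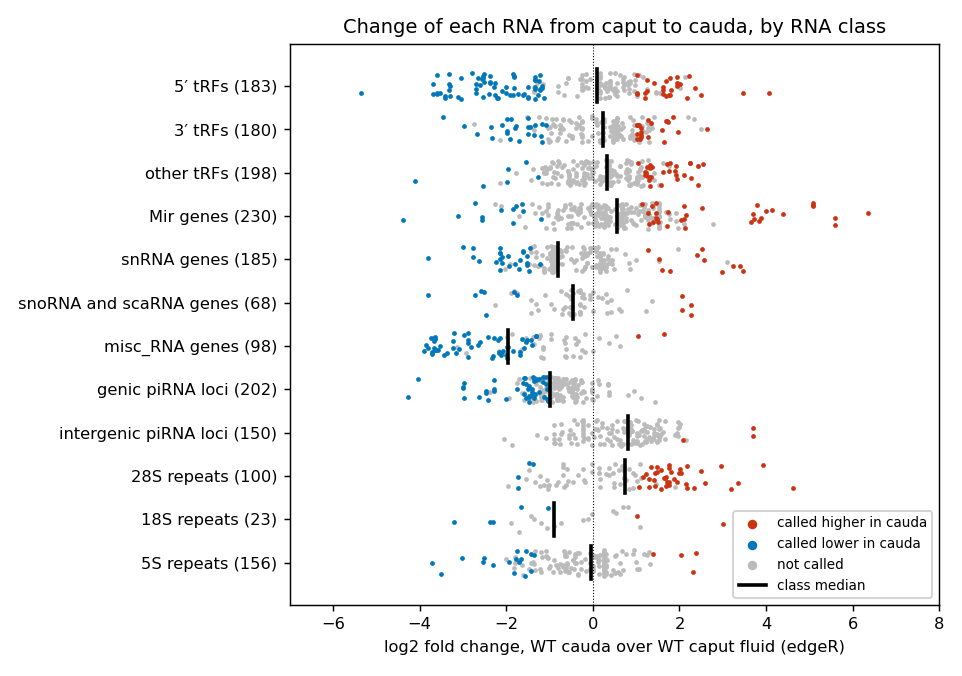
Log2 fold change of each tested RNA between WT cauda and WT caput fluid (x axis, edgeR) by RNA class (y axis, number of RNAs in brackets). Each point is 1 RNA, red where called higher in cauda, blue where called lower and grey where not called, and the black line is the class median. The misc_RNA genes lie mostly to the left, with a median of -1.97, and the Mir genes to the right, with a median of 0.55. The 45 microRNA entries with a Gm name, with a median of -1.75, are not drawn.

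As shares of each library's counts, 5′ tRFs took 34.1%, 31.1% and 30.3% in caput and 34.5%, 39.2% and 38.4% in cauda fluid. The 3′ tRFs took 42.4% to 44.0% in caput and 39.4% to 46.5% in cauda. The 28S sequence, as the entries 28S_rRNA_1 and 28S_rRNA_2 together, took 6.95%, 8.04% and 9.05% in caput against 4.23%, 3.53% and 2.78% in cauda. Unlike the authors' read percentages, which used only primary mappings, these shares count a read on each entry that it matched equally well. The cauda values of the 5′ tRFs and of the 28S sequence did not overlap the caput values, those of the 3′ tRFs did. The 2-sided exact permutation test of 3 against 3 libraries cannot give a p below 0.1, which 10 of the 25 shares compared reached, and the lowest adjusted p was 0.25. Entries annotated as microRNA took 1.12%, 1.20% and 1.26% in caput and 0.676%, 0.549% and 0.335% in cauda. Of all counts, 0.790%, 0.956% and 1.03% in caput and 0.279%, 0.152% and 0.198% in cauda lay on 5 predicted microRNA entries that overlap the 7SL RNA genes Rn7s1, Rn7s2 and Rn7s6, among them Gm47295 at chr12:69159518-69159596 and Gm47299 at chr12:69361179-69361258, whose reads cannot be told apart from those of 7SL RNA. Gm47295 and Gm47299, whose counts are nearly the same, fell, with a log2 fold change of -2.15 (adjusted p = 0.00508, edgeR). The other 399 microRNA entries took 0.334%, 0.245% and 0.236% of the counts in caput and 0.397%, 0.397% and 0.138% in cauda, so that the groups overlapped.

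Because isodecoders share reads, tRFs were summed per anticodon and fragment type, and 374 of the 1606 sums and single RNAs of that model (23.3%) were called, 135 higher (8.41%) and 239 lower (14.9%). Of 49 summed 5′ tRFs, 5 rose and 16 fell. The 5 that rose were the 3 valine anticodons and the leucine anticodons Leu-AAG and Leu-TAG. The most counted isodecoders of Val-CAC and Val-AAC had nearly the same counts, as had those of Leu-AAG and Leu-TAG, so that these pairs share reads and are not separate measurements. The 5′ tRFs of Val-CAC, whose gene is shown above, were at 6794, 6224 and 8108 CPM in caput and 21948, 22732 and 39932 CPM in cauda, a log2 fold change of 2.002 ± 0.33 (SE, adjusted p = 0.000433, edgeR). Those of Val-AAC were at 8277, 7153 and 9723 CPM in caput and 27525, 25273 and 47616 CPM in cauda. All cauda libraries lay above all caput libraries for both, by about the same log2 fold change (1.997 for Val-AAC), and corpus fluid lay between them, at means of 18264 and 21020.2 CPM. Val-TAC 5′ tRFs were at 1094, 525 and 744 CPM in caput and 1493, 2821 and 3979 CPM in cauda (log2 fold change 1.81, adjusted p = 0.00524, edgeR). Leu-AAG 5′ tRFs were at 151, 185 and 197 CPM in caput and 679, 441 and 627 CPM in cauda (log2 fold change 1.71, adjusted p = 0.00396, edgeR), and Leu-TAG 5′ tRFs rose by a log2 fold change of 1.64 (adjusted p = 0.00479, edgeR). The Val-CAC, Val-AAC and Leu-AAG 5′ sums kept their call in all 13 alternatives run, which varied scaling, filter, samples and test. Among single isodecoders, tRNA-Val-AAC-4 5′ tRFs were at 14.6, 8.4 and 9.88 CPM in caput and 70.9, 119 and 174 CPM in cauda, a log2 fold change of 3.46 ± 0.50 (SE, adjusted p = 8.09e-05, edgeR).

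The 5′ tRFs that fell came from more anticodons, 16 of 49, among them 2 of alanine, 4 of arginine and those of tryptophan and phenylalanine. Ala-AGC 5′ tRFs were at 11415, 21119.7 and 17400.4 CPM in caput and 1131, 2187 and 2066 CPM in cauda, a log2 fold change of -3.21 ± 0.38 (SE, adjusted p = 2.95e-05, edgeR). Arg-ACG 5′ tRFs were at 31918, 36551 and 21044 CPM in caput and 2433, 8728 and 4347 CPM in cauda (log2 fold change -2.53, adjusted p = 0.000633, edgeR). The 3 other arginine anticodons that fell were Arg-TCT at -1.73, Arg-CCT at -1.495 and Arg-TCG at -1.48. For each of them every cauda library lay below every caput library. Trp-CCA 5′ tRFs were at 2779, 3199 and 2369 CPM in caput and 318, 566 and 620.2 CPM in cauda (log2 fold change -2.47, adjusted p = 0.000105, edgeR). Among less counted sums, Met-CAT, from the methionine tRNA of elongation, was at 249.8, 289.7 and 235 CPM in caput and 6.9, 34 and 17.7 CPM in cauda, the lowest log2 fold change of the 49 sums at -3.72 ± 0.53 (SE, adjusted p = 0.000105, edgeR). The 5′ tRFs of iMet-CAT, the initiator tRNA with the same anticodon, had a log2 fold change of 0.39 and were not called. Ile-TAT and Phe-GAA 5′ tRFs fell by 3.67 and 3.05 on the log2 scale. Sums count a read once for each isodecoder that shares it, so that their level and rank depend on how many isodecoders are listed. Gly-GCC 5′ tRFs, the highest sum, were at 121507, 106952 and 135592 CPM in caput and 195635, 147856 and 254661 CPM in cauda. The cauda libraries lay above the caput libraries, but the sum was not called, with a log2 fold change of 0.72 (adjusted p = 0.0811, edgeR), although the sum was with TMM factors from other RNAs (1.15) and by DESeq2 (1.002). Glu-CTC 5′ tRFs, the second highest sum, overlapped between the segments (log2 fold change 0.34).

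**Figure D2:**
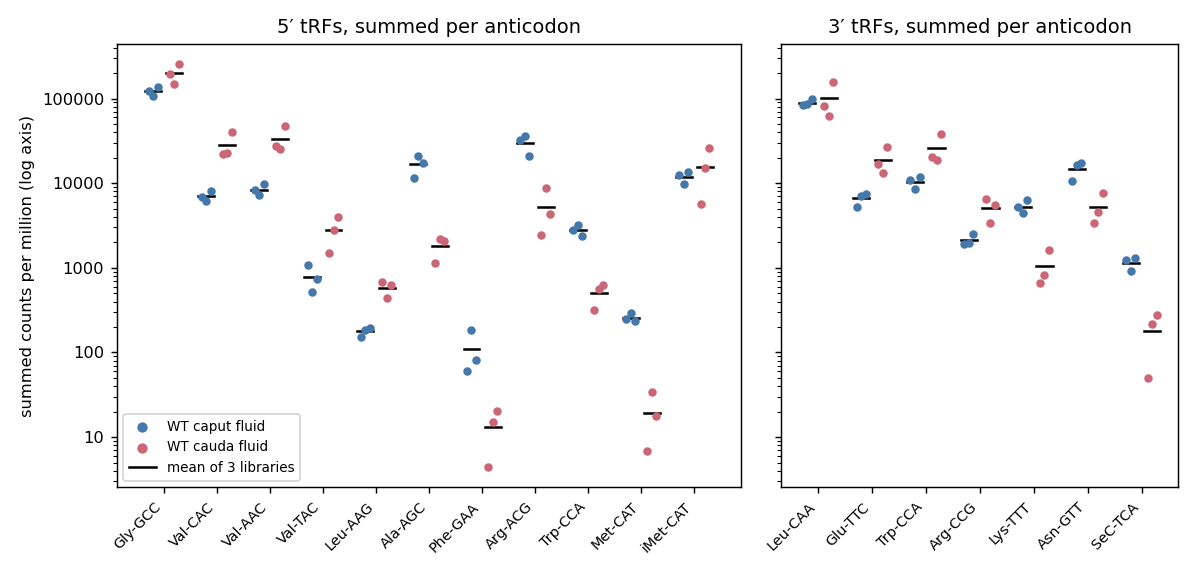
Summed CPM (y axis, log scale) of 5′ tRFs (left) and 3′ tRFs (right) per tRNA anticodon (x axis) in each of the 3 WT caput (blue) and 3 WT cauda (red) fluid libraries, with black lines at the means. The 5′ tRFs of Val-CAC lay between 6224 and 8108 CPM in caput and between 21948 and 39932 CPM in cauda, while those of Ala-AGC lay at 11415 CPM or more in caput and at 2187 CPM or less in cauda.

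Of 49 sums of 3′ tRFs, 6 rose and 8 fell. Val-TAC rose and SeC-TCA, Asn-GTT, Lys-TTT and Ala-AGC fell both as 5′ and as 3′ tRFs. Glu-TTC 3′ tRFs were at 5291, 7117 and 7449 CPM in caput and 16824, 13349 and 26774 CPM in cauda (log2 fold change 1.52, adjusted p = 0.00733, edgeR). Trp-CCA 3′ tRFs, of the tRNA whose 5′ tRFs fell, were at 10945, 8418 and 11707 CPM in caput and 20378, 18713 and 37949 CPM in cauda (log2 fold change 1.31, adjusted p = 0.0119, edgeR). The groups did not overlap for either, although without caput library 2 or cauda library 3 the log2 fold change of Trp-CCA was 1.30 or 1.06 and was not called. Arg-CCG, Asp-GTC, Arg-TCG and Val-TAC 3′ tRFs also rose, by log2 fold changes of 1.28, 1.02, 1.01 and 1.01. Those that fell included SeC-TCA, the selenocysteine tRNA, at 1253, 907 and 1301 CPM in caput and 50.1, 218 and 274 CPM in cauda (log2 fold change -2.68, adjusted p = 0.000926, edgeR). Lys-TTT 3′ tRFs were at 5166, 4399 and 6307 CPM in caput and 657, 833 and 1623 CPM in cauda (log2 fold change -2.35, adjusted p = 0.00085, edgeR). The 3 proline anticodons fell together, by 1.98, 1.98 and 1.79 on the log2 scale, but their 3′ tRFs share reads. The CPM of Pro-CGG and Pro-TGG were 0.9999 to 1.32 times those of Pro-AGG in each library, so that the 3 are not separate measurements. Asn-GTT 3′ tRFs were at 10698, 16249.5 and 17189 CPM in caput and 3388, 4561 and 7708 CPM in cauda (log2 fold change -1.495, adjusted p = 0.00644, edgeR). The highest 3′ sums, Leu-CAA and His-GTG, overlapped between segments, with log2 fold changes of 0.16 and 0.06.

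Fragments that ended at neither tRNA end mostly rose where they were called, 9 of 51 sums higher and 3 lower. Val-AAC was at 189, 160.1 and 177 CPM in caput and 893, 883 and 339 CPM in cauda (log2 fold change 2.01, adjusted p = 0.00671, edgeR). Val-CAC was at 279.8, 279 and 273 CPM in caput and 1098, 1469 and 564 CPM in cauda (log2 fold change 1.91, adjusted p = 0.0114, edgeR), and was not called without caput library 3, at 2.04. Lys-TTT was at 317, 176 and 222 CPM in caput and 1052, 747 and 431 CPM in cauda (log2 fold change 1.64, adjusted p = 0.00855, edgeR), and without caput library 2 or cauda library 1, at 1.67 or 1.32, it was not called. The valine fragments thus rose as 5′ tRFs and as other fragments, while Lys-TTT rose as other fragments and fell as 5′ and 3′ tRFs. Of the 3 that fell, SeC-TCA was at 157, 173 and 128 CPM in caput and 6.16, 58.9 and 13.8 CPM in cauda (log2 fold change -2.53, adjusted p = 0.00379, edgeR), and Ser-CGA and Ser-GGA were at -1.28 and -1.17. Ser-CGA was not called without any 1 library other than cauda library 3 (-1.43 to -0.90), nor Ser-GGA without any 1 of the 6 (-1.35 to -0.86). Of 24 full-length tRNAs tested, 0 rose and 1 fell, with a median of -0.75, and their mean CPM in a segment was at most 65.0.

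The ratio of 5′ to 3′ tRFs of the same tRNA does not depend on the scaling between libraries. Summed counts of 5′ tRFs over those of 3′ tRFs were compared on the log2 scale for 48 anticodons with limma, a test chosen after the sums were seen. The ratio fell for 12 anticodons (25%) and rose for 5 (10.4%), with a median log2 difference of -0.18 over all 48. In 16 of these 17 the cauda and caput libraries did not overlap, which follows in part from picking ratios with a wide gap. Over all 48 anticodons, the cauda ratios lay wholly below the caput ratios for 16 and wholly above for 8. For Trp-CCA the log2 ratio was -1.98, -1.40 and -2.31 in caput and -6.003, -5.05 and -5.94 in cauda, a difference of -3.77 ± 0.43 (SE, adjusted p = 2.07e-07, limma). The level of a ratio depends on how many isodecoders share each fragment, so that the difference between the segments alone is read. For Arg-ACG the log2 ratio was 2.47, 2.11 and 1.29 in caput and -2.70, -0.29 and -1.91 in cauda, a difference of -3.59 ± 0.56 (SE, adjusted p = 2.01e-05, limma). Arg-TCG, shown above, was at 1.43, 1.04 and 0.27 in caput and -3.20, -0.44 and -1.86 in cauda, and Arg-CCG at 1.21, 1.21 and 0.17 in caput and -3.97, -0.42 and -1.90 in cauda. The 5′ tRFs of Arg-TCG and Arg-CCG share reads, so that these anticodons are not separate measurements. The others that fell were Gly-ACC (-3.71), Phe-GAA (-3.52), Met-CAT (-2.96), Ile-TAT (-2.45), Ala-TGC (-2.41), Tyr-GTA (-1.86), Asp-GTC (-1.85) and Ala-AGC (-1.42). Ala-AGC lost its call without each of caput libraries 1 to 3 and cauda libraries 1 and 3, at -1.27, -1.48, -1.501, -1.36 and -1.26. Of the 12, 9 had a called fall of the 5′ sum, and 9 had a 3′ sum with a log2 fold change above 0, 4 of them called higher. With the most counted isodecoder of each anticodon and fragment type in place of the sum, 14 ratios fell and 10 rose, and all 17 kept their call and direction.

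The 5 anticodons whose ratio rose were Pro-CGG (1.63), Pro-AGG (1.55), Lys-CTT (1.38), Lys-TTT (1.30) and Leu-AAG (1.19). For Lys-TTT the log2 ratio was -0.18, -0.26 and -0.51 in caput and 0.96, 1.30 and 0.67 in cauda, a difference of 1.30 ± 0.40 (SE, adjusted p = 0.0119, limma). In 4 of the 5 the 3′ sum was called lower, the exception being Leu-AAG, whose 5′ sum rose. The count of 5 depended on single libraries and was 3 without caput library 2 or cauda library 3, 1 without caput library 3, 9 without cauda library 1 and 2 without cauda library 2, whereas the count of 12 stayed between 11 and 14.

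**Figure D3:**
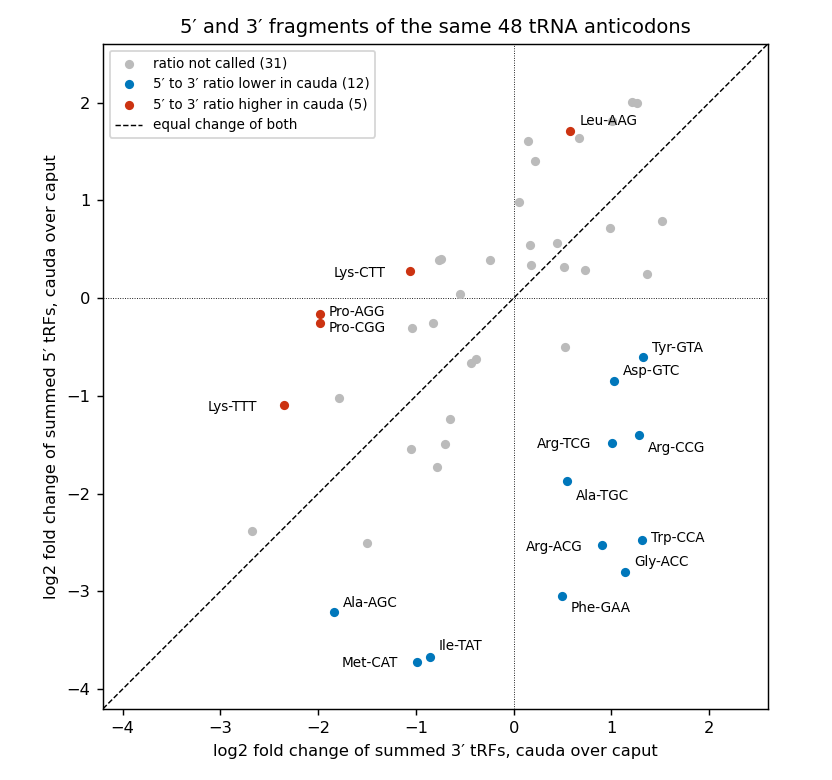
Log2 fold change between WT cauda and WT caput fluid of the summed 5′ tRFs (y axis) against that of the summed 3′ tRFs (x axis) for 48 tRNA anticodons, 1 point each. Blue points are the 12 anticodons whose 5′ to 3′ ratio fell, red points the 5 whose ratio rose and grey points the other 31, and on the dashed line both fragments change equally. Trp-CCA lies far below the line, at 1.31 for its 3′ and -2.47 for its 5′ tRFs.

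Ribosomal RNA sequences did not move as 1 group. The 28S entry 28S_rRNA_1, of the large subunit, was at 36681, 42019.6 and 55045 CPM in caput and 22731, 14432 and 19504 CPM in cauda, a log2 fold change of -1.24 ± 0.32 (SE, adjusted p = 0.00728, edgeR). All cauda libraries were lower, although without caput library 3 or cauda library 2 the log2 fold change was -0.98 or -0.997 and was not called. With TMM factors from other RNAs it was -0.84 and not called either. The second 28S entry, 28S_rRNA_2, had a log2 fold change of -1.10 (adjusted p = 0.0108, edgeR), and was not called without caput library 2 or 3 or cauda library 2, at -0.99, -0.84 and -0.88, nor with DESeq2 size factors, at -0.91. The 5.8S rRNA, which pairs with the 28S rRNA in the large subunit, was at 30.6, 42.7 and 35 CPM in caput and 169, 143 and 145.4 CPM in cauda, a log2 fold change of 2.08 ± 0.38 (SE, adjusted p = 0.000758, edgeR). It rose while the 28S sequence fell, and its 3 cauda libraries lay close together. The 18S rRNA, of the small subunit, was at 3116, 3929.6 and 3447 CPM in caput and 7175, 5227 and 5952 CPM in cauda, with a log2 fold change of 0.81 (adjusted p = 0.045, edgeR), below the fold threshold, and was called with TMM factors from other RNAs, at 1.20. The 5S rRNA and the mitochondrial rRNAs LSU_mito and SSU_mito were not called, at 0.35, -0.17 and -1.07. Genomic repeats annotated as rRNA, which were counted apart, went partly the other way. Of 100 28S repeats, 39 rose, for example rmsk_28S_780 at 203, 317 and 293 CPM in caput and 3157, 1292 and 1895 CPM in cauda (log2 fold change 2.96, adjusted p = 6.02e-05, edgeR) and rmsk_28S_943 at 2.53, 1.75 and 2.1 CPM in caput and 25.6, 33 and 39.6 CPM in cauda (log2 fold change 3.93, adjusted p = 0.000228, edgeR). Of 156 5S repeats, 4 rose and 17 fell, the latter including rmsk_5S_629 at 161, 139 and 98.4 CPM in caput and 46.7, 35.6 and 33 CPM in cauda (log2 fold change -1.79, adjusted p = 0.00388, edgeR). Of 23 18S repeats, 2 rose and 5 fell. These splits depended on the scaling. With TMM factors from other RNAs 14 5S repeats rose and 10 fell, and with DESeq2 size factors 9 rose and 13 fell, while for 18S repeats the counts were 4 and 2 or 4 and 3. The 28S repeats had a median between 0.74 and 1.13 under the 4 scalings, and the median of the 5S repeats changed sign among them, from -0.06 to 0.31.

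The pair of Y RNAs differed. Y RNAs bind the proteins Ro60 and La and are cut into small fragments in many cells. Rny3 was at 4378, 2806 and 4605 CPM in caput and 114, 658 and 315 CPM in cauda, a log2 fold change of -3.44 ± 0.75 (SE, adjusted p = 0.00264, edgeR), and Rny1 was at 7302, 3572 and 6392 CPM in caput and 5220.5, 3561 and 5353 CPM in cauda, a log2 fold change of -0.29 ± 0.39 (SE, adjusted p = 0.611, edgeR). Rny3 was lower in every cauda library, while the Rny1 libraries overlapped. Of 9 entries whose sequence matched Rny1, 0 were called by edgeR or DESeq2, 1 had an unadjusted p under 0.05, and 7 lay below 0. Rn7sk, the 7SK RNA, was at 367, 508 and 376 CPM in caput and 75.9, 243 and 83.3 CPM in cauda (log2 fold change -1.64, adjusted p = 0.00848, edgeR), and lost its call without caput library 2 or cauda library 3, at -1.25 or -1.17. Of 47 entries matched to 7SK by sequence, 36 fell and 0 rose, with a median of -2.07. These copies can share reads and are not separate measurements. The 7SL genes Rn7s1, Rn7s2 and Rn7s6 were not called, at -0.63, -0.63 and -0.34, although Gm47295 and Gm47299, at the ends of Rn7s1 and Rn7s2, fell. Vaultrc5, a vault RNA of the large vault particle, was at 65.1, 45.5 and 49.3 CPM in caput and 21.2, 23.2 and 15.1 CPM in cauda (log2 fold change -1.42, adjusted p = 0.00863, edgeR).

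Spliceosomal RNAs were described by type, and types were not tested against each other. Copies of a type can share reads. Of 10 entries matched by sequence to U5, which holds the exon ends together in the splicing core, 3 rose and 0 fell, beside 9.69% and 15.4% of all RNAs. Rnu5g was at 26.7, 21.7 and 24.6 CPM in caput and 147, 64.5 and 41.5 CPM in cauda (log2 fold change 1.79, adjusted p = 0.00557, edgeR). The U5 copy Gm25099, at chr4:117189942-117190057, was at 50.8, 45.7 and 46.9 CPM in caput and 407, 173 and 267 CPM in cauda (log2 fold change 2.56, adjusted p = 0.000505, edgeR). For both, every cauda library was higher than every caput library. Of 18 entries of U2, which binds the branch point of introns, 6 fell (33.3%, beside 15.4% of all RNAs) and 0 rose. Among them, Gm24497 was at 639, 853 and 867 CPM in caput and 204, 211.04 and 266 CPM in cauda (log2 fold change -1.79, adjusted p = 0.00173, edgeR). Rnu2-10 had a log2 fold change of -0.97, below the fold threshold. Of 49 U6 entries, 48 had a log2 fold change below 0 and 29 an unadjusted p under 0.05, beside 1085 and 798 of all 2023 RNAs. By edgeR or DESeq2, 0 of the U6 entries were called. Of 68 U1 entries 6 rose (8.82%) and 5 fell (7.35%). Rnu1a1, the most counted U1 gene, overlapped between the segments, at 0.16. Medians were 0.43 for U5, 0.08 for U1, -0.92 for U6 and -1.12 for U2, beside -0.17 for all RNAs. Among 68 snoRNA and scaRNA genes, 4 rose (5.88%) and 7 fell (10.3%), both below the shares of all RNAs. Those that rose were Snord50a and Snord50b, which guide methylation of 28S rRNA, and a pair of entries with the same counts. Snord50b was at 1.46, 0.875 and 1.2 CPM in caput and 8.83, 4.31 and 4.25 CPM in cauda (log2 fold change 2.28, adjusted p = 0.00351, edgeR). Snora73a and Snora73b, of the U17 type, were among those that fell, at -2.52 and -2.47, and the highest CPM of either in any of the 6 libraries was 3.85. The most counted snoRNAs, Rnu3b1 and Rnu3b2 of the U3 type, were not called, at -0.30.

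**Figure D4:**
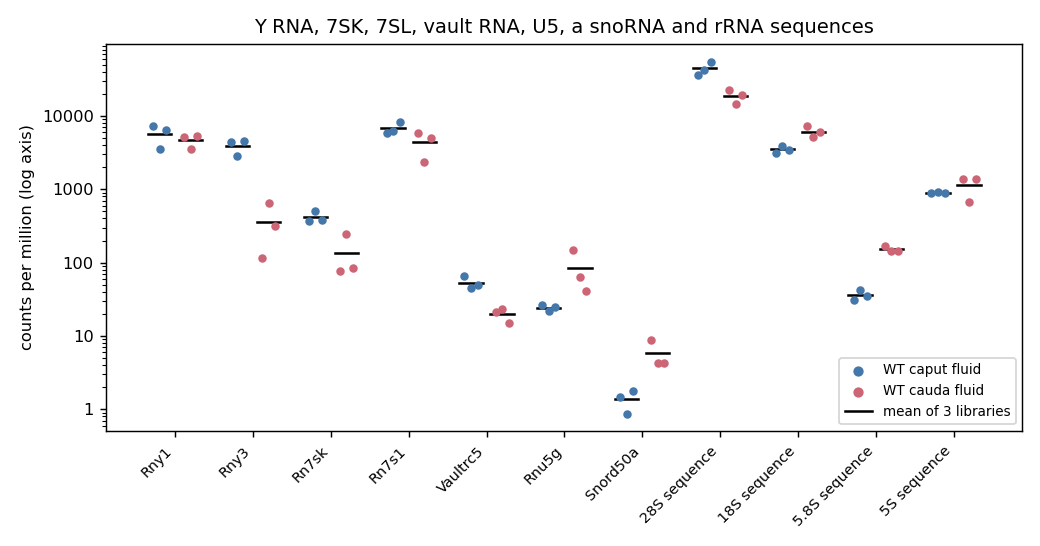
CPM (y axis, log scale) of Y RNA genes, 7SK, a 7SL gene, a vault RNA, a U5 snRNA, a snoRNA and 4 rRNA sequences (x axis) in each of the 3 WT caput (blue) and 3 WT cauda (red) fluid libraries, with black lines at the means. Rny3 was at 2806 CPM or more in caput and at 658 CPM or less in cauda, while Rny1 overlapped.

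MicroRNAs pair with mRNAs through their seed, bases 2 to 8 from the 5′ end. Counts were per gene, so that the arm that gave the reads is not known, and for each gene the arm by which its family is known is shown. Of the 275 microRNA entries tested, 182 matched mature sequences in RefSeq (GRCm38). Those of the genes that carried the changes are given with the seed in capitals, grouped by shared seed. The first 7 are of genes that rose together in families, the next 2 of the genes on the X chromosome that are known from testis, and the last 5 of genes that fell.
mmu-miR-34b-5p: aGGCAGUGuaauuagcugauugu
mmu-miR-16-5p: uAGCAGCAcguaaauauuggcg
mmu-miR-15a-5p: uAGCAGCAcauaaugguuugug
mmu-miR-196b-5p: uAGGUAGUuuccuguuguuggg
mmu-miR-221-3p: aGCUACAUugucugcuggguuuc
mmu-miR-222-3p: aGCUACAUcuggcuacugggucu
mmu-miR-19b-3p: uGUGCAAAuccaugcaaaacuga
mmu-miR-465a-3p: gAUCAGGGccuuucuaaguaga
mmu-miR-743a-3p: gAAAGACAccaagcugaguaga
mmu-miR-204-5p: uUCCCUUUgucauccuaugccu
mmu-miR-148a-3p: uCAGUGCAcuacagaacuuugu
mmu-miR-135a-5p: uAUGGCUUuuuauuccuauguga
mmu-let-7e-5p: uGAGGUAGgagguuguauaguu
mmu-miR-182-5p: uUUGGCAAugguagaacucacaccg

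Several Mir genes that share a seed were called higher. Mir34b and Mir34c, neighbours on chromosome 9 that are transcribed in multiciliated cells and in spermatogenic cells, were both called. Mir34b, at chr9:51103562-51103645 on the minus strand, was at 0.798, 1.05 and 0.898 CPM in caput and 21.2, 13.1 and 9.86 CPM in cauda, a log2 fold change of 3.998 ± 0.49 (SE, adjusted p = 1.3e-05, edgeR). Mir34c was at 0.532, 1.05 and 1.05 CPM in caput and 7.17, 4.58 and 3.23 CPM in cauda (log2 fold change 2.51, adjusted p = 0.00421, edgeR). No cauda library overlapped the caput libraries for either, and corpus fluid had a mean of 5.55 CPM of Mir34b. In the caput libraries Mir34b had 6, 6 and 6 counts and Mir34c had 4, 6 and 7. Both thus passed the filter on low counts only through libraries in which they were high, and their values are given as a description. The related Mir34a and Mir449a were not called, at 0.999 and 1.55. Mir16-1 and Mir16-2, which encode the same mature miR-16 and share reads, were at log2 fold changes of 2.10 and 2.10, with Mir16-1 at 8.52, 7.35 and 8.23 CPM in caput and 45.3, 38.3 and 20.1 CPM in cauda (adjusted p = 0.00216, edgeR). Mir15a, of the same seed and 1 cluster with Mir16-1, was at 3.99, 3.32 and 3.44 CPM in caput and 11.1, 10.4 and 7.99 CPM in cauda (log2 fold change 1.45, adjusted p = 0.0165, edgeR), and Mir15b rose by 1.27 on the log2 scale with overlapping libraries. All 4 of these genes share the seed shown for miR-16.

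Mir221 and Mir222, from 1 cluster on the X chromosome, were at 6.12, 3.5 and 3.89 CPM in caput and 16.1, 12.1 and 10.2 CPM in cauda (log2 fold change 1.503, adjusted p = 0.00908, edgeR) and at 9.45, 5.6 and 5.24 CPM in caput and 27.4, 23.2 and 16.3 CPM in cauda (log2 fold change 1.72, adjusted p = 0.00416, edgeR). All 3 cauda libraries were above all 3 caput libraries for both. In the miR-17/92 clusters, which promote proliferation in many cells, 4 of 10 genes rose and 0 fell, beside 9.69% and 15.4% of all RNAs, and 2 rose with library sizes alone. Mir19b-1 and Mir19b-2 share their reads and are 1 measurement. The miR-19 genes Mir19a, Mir19b-1 and Mir19b-2 and Mir25 rose, at 2.04, 1.45, 1.47 and 1.29, while Mir17 and Mir20a of the same primary transcript as Mir19a were not called, at -0.89 and -0.50. Mir19b-1 was at 12.2, 11.9 and 8.98 CPM in caput and 27.9, 33 and 29.8 CPM in cauda and lost its call when any of the 3 caput libraries or cauda library 2 or 3 was left out, at values from 1.43 to 1.69. Mir196b, which lies among the posterior Hoxa genes, had 0, 1 and 1 counts in the caput libraries and 37, 57 and 21 in the cauda libraries, and was called (adjusted p = 0.00107, edgeR). Mir196a-1 and Mir196a-2, of the other Hox clusters, had 1 count each in the 3 caput libraries together and 26 and 29 in the cauda libraries, of which the third cauda library gave 1 each. The miR-196 genes passed the filter on low counts only through libraries in which they were high. Their calls are therefore no support for a difference, and their counts are given as a description. Mir99a rose by 1.14 and Mir223, a gene of myeloid cells, by 2.12 on the log2 scale.

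Genes known from testis and sperm were near 0 in caput fluid. Of 17 genes taken as markers of male germ cells and sperm, all had a count in the 6 libraries, 12 passed the filter on low counts, and 9 of these were called higher and 0 lower. The 9 had under 10 counts in each caput library and passed that filter only through libraries in which they were high. The count of 9 is therefore no support for a difference, and the counts per library are given as a description. The summed CPM of the marker genes were 3.73, 3.85 and 5.84 in caput and 62.4, 45.2 and 31.1 in cauda fluid. Apart from Mir34b and Mir34c, the genes that rose lie in 1 cluster on the X chromosome. Mir881 had 1, 1 and 4 counts in the caput libraries and 44, 68 and 23 in the cauda libraries, and Mir465 had 2, 0 and 4 against 50, 51 and 15. Mir743, Mir871, Mir471 and Mir883a had 2 or 3 counts each over the 3 caput libraries and 47 to 74 over the cauda libraries. Mir743b had 0 counts in caput and 40 in cauda fluid, which is at least 9.44-fold higher when 3 counts over the group are taken as the floor. Mir465b-1 and Mir465c-1, which were not on the list, also rose, with 2 and 1 counts in caput and 118 and 96 in cauda, and their second copies Mir465b-2 and Mir465c-2 had the same counts. That these RNAs came from sperm left in the fluid, from germ cells upstream or from the duct itself was not tested.

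Fewer Mir genes fell, 12 of 230. Mir204, at chr19:22750605-22750672 within the Trpm3 gene, was at 48.2, 30.4 and 35.9 CPM in caput and 4.23, 5.81 and 3.06 CPM in cauda, a log2 fold change of -3.11 ± 0.41 (SE, adjusted p = 3.15e-05, edgeR). Its cauda libraries lay far below its caput libraries, and corpus fluid was already low, at a mean of 6.22 CPM. In WT tissue, sequenced by another protocol and scaled in its own table, Mir204 was also lower in cauda, with a log2 fold change of -3.91 (adjusted p = 0.00124, edgeR). Mir16-2 was also higher, at 2.01 (adjusted p = 0.00899, edgeR), while 14 others of the RNAs and sums named by rule lay apart in the opposite direction to fluid. Mir148a, one of the most counted Mir genes in caput fluid, was at 136, 114 and 126 CPM in caput and 77.3, 55.4 and 30.4 CPM in cauda (log2 fold change -1.20, adjusted p = 0.0262, edgeR), and lost its call without any caput library or without cauda library 2 or 3, at -0.96, -1.07, -1.09, -1.10 and -0.79. It was not called with DESeq2 size factors either, at -1.01, nor with TMM factors from other RNAs, at -0.87. Mir375, best known from pancreatic islets and other secretory epithelia, was at 3.99, 5.42 and 4.19 CPM in caput and 1.29, 1.67 and 0.68 CPM in cauda (log2 fold change -1.84, adjusted p = 0.0141, edgeR), and was not called without any of the caput libraries or cauda library 3, at -1.74, -1.501, -1.77 and -1.44. Mir135a-1 and Mir135a-2, which share the mature sequence, were at -1.63 and -1.62, with Mir135a-1 at 31.7, 20.8 and 25.4 CPM in caput and 6.99, 10.7 and 7.31 CPM in cauda. Mir182, of a cluster expressed in sensory and epithelial cells, was at -1.78 and Mir146b, which is induced in inflammation, at -1.85. Mir8114 was at 6.39, 14.9 and 9.88 CPM in caput and 0.368, 0.792 and 0.17 CPM in cauda (log2 fold change -4.40, adjusted p = 8.09e-05, edgeR). It had 48, 85 and 66 counts in the caput libraries and 4, 9 and 1 in the cauda libraries. Mir8114 thus passed the filter on low counts only through libraries in which it was high, and its values are given as a description.

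Other families did not pass the test. Of 12 let-7 genes, 1 fell, Mirlet7e at -2.12, and the rest were not called, with a median of -0.51 for the family. Mirlet7c-2, among the most counted of them, was at 139.6, 117 and 134 CPM in caput and 189, 87.4 and 42.3 CPM in cauda, and the libraries overlapped. None of the 5 miR-200, 6 miR-30, 4 miR-29, 3 miR-26 or 6 miR-181 genes was called by edgeR or DESeq2 (0), and 1, of miR-200, had an unadjusted p under 0.05. Their medians were -0.43, 0.10, 0.11, 0.40 and 0.78. The sign of each of these medians was the same under the 4 scalings. Mir21a, among the most counted Mir genes in cauda fluid, was at 193, 127 and 109.6 CPM in caput and 209, 186 and 77.9 CPM in cauda, a log2 fold change of 0.14. Mir125b-1, Mir26a-2, Mir29a and Mir191 also overlapped between the segments, at 0.04, 0.40, -0.07 and -0.01.

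**Figure D5:**
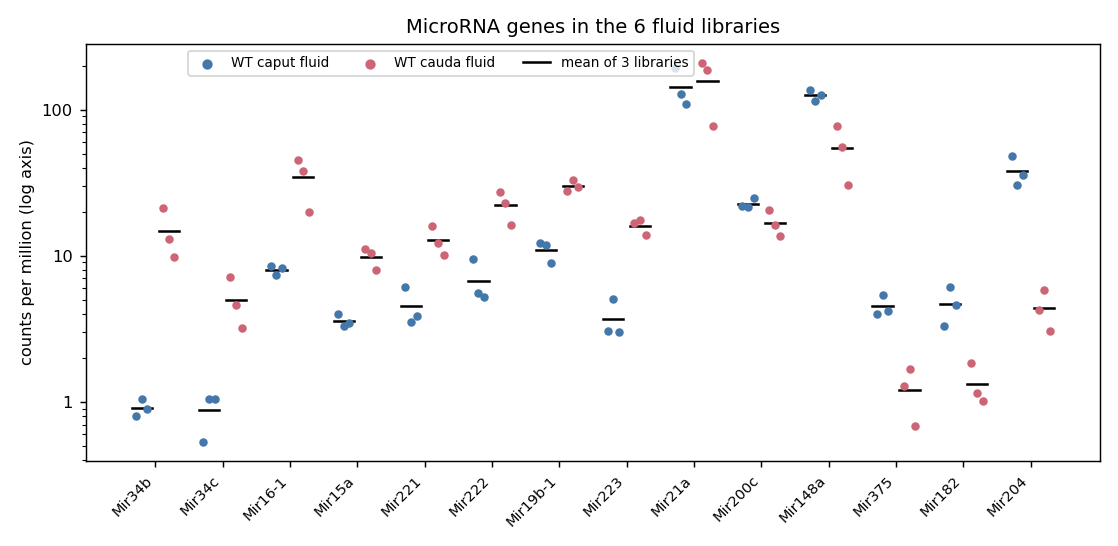
CPM (y axis, log scale) of 14 microRNA genes (x axis) in each of the 3 WT caput (blue) and 3 WT cauda (red) fluid libraries, with black lines at the means. Mir34b lay between 0.798 and 1.05 CPM in caput and between 9.86 and 21.2 CPM in cauda. It passed the filter on low counts only through libraries in which it was high, as did Mir34c. Mir204 lay between 30.4 and 48.2 CPM in caput and between 3.06 and 5.81 CPM in cauda, and the libraries of Mir21a overlapped.

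Summed CPM of the markers of some other cells were also higher in cauda fluid, as were Mir genes in general (median 0.55). The 7 muscle genes listed (Mir1a, Mir133, Mir143 and Mir145a genes) summed to 145.7, 79.4 and 112 CPM in caput and to 339.8, 258 and 153 CPM in cauda, and 0 of 6 tested were called by edgeR, although 2 had an unadjusted p under 0.05 and were called by DESeq2 and with TMM factors from other RNAs. Mir206 was not listed. Red blood cell genes (Mir451a, Mir144, Mir486) summed to 25.02, 23.8 and 25 CPM in caput and 62.1, 40.8 and 57.5 CPM in cauda, with 0 of 2 tested called by edgeR or DESeq2 and 0 at an unadjusted p under 0.05. Myeloid genes (Mir223, Mir142) summed to 9.98, 8.92 and 6.44 CPM in caput and 25.1, 39.7 and 19.9 CPM in cauda, with 1 of 2 tested called by edgeR and 2 by DESeq2. Lymphoid genes (Mir150, Mir155) summed to 1.57 to 1.95 CPM in caput and 2.38 to 3.61 CPM in cauda. Of these, 0 of 1 tested was called by edgeR or DESeq2, and 0 had an unadjusted p under 0.05. In these 4 lists every cauda sum was above every caput sum, while the endothelial Mir126a overlapped. Of all single RNAs, 16.5% lay wholly above in cauda, so that the sums of these lists are given as a description. As genes that neither segment should hold, Mir124a-1 and Mir122 were at 0 or not listed, and the Mir9 genes summed to 3.15 to 4.49 CPM in caput and 0.340 to 2.47 CPM in cauda. The part of blood, muscle or germ cells in the differences of other RNAs was not tested.

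The piRNA loci, regions that give PIWI-interacting RNAs in testis, lay to opposite sides of 0 by kind. Of 202 loci within genes, 0 rose and 48 fell (23.8%, beside 15.4% of all RNAs), and 189 had a log2 fold change below 0, with a median of -0.99. The count that fell was 34 with DESeq2 size factors, 27 with library sizes alone and 18 with TMM factors from other RNAs. Under the last of these 192 of all 2023 RNAs fell, so that the share of these loci was near that of all RNAs. The lowest log2 fold changes were those of loci in the Foxo3 gene, pi-Foxo3.2 at 37, 122 and 75.7 CPM in caput and 4.6, 6.07 and 3.4 CPM in cauda (log2 fold change -4.05, adjusted p = 9.08e-05, edgeR) and pi-Foxo3.3 at -4.27, with nearly the same CPM in each library. pi-Ctdsp2.1 was not called, at 0.35. Of 150 intergenic loci, 3 rose (2%, below the 9.69% of all RNAs) and 0 fell, and 0 rose with library sizes alone. Of the 150, 112 lay above 0, with a median of 0.80. The median stayed below 0 for loci within genes (-0.99 to -0.64) and above 0 for intergenic loci (0.76 to 1.18) under the 4 scalings. The 3 intergenic loci that rose reached at most 11.7 CPM in a cauda library. A locus within a gene also counts pieces of its host transcript that are no piRNA, and these were not separated.

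In the KO mice, whose caput and cauda fluid came from other animals, 0 of 2023 RNAs (0%) had a change along the duct that differed from WT at an adjusted p under 0.05 in edgeR's interaction test, 221 at an unadjusted p under 0.05, and DESeq2 called 16 higher and 7 lower. The log2 fold changes from caput to cauda in KO fluid were 1.63 for Val-CAC 5′ tRFs, -1.10 for Ala-AGC 5′ tRFs, -1.21 for Rny3, 2.86 for Mir34b and -3.32 for Mir204. Of the ratios of 5′ to 3′ tRFs, 3 of 48 (6.25%) differed between KO and WT in their change, those of Ala-AGC, Thr-AGT and Tyr-GTA. The corpus mean of WT fluid lay between the caput and the cauda mean for 30 of the 47 called tRF sums, 53 of the 66 called microRNA entries and 104 of the 111 called snRNA, snoRNA and other small RNA entries. Called entries were picked for a wide gap between the caput and cauda means, in which another mean falls more easily. The share over all RNAs is not given here, so that these counts are no support for a graded change along the duct.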

How the data were processed

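Luminal fluid RNA of WT mice was sequenced as small RNA, with 3 libraries per segment. The deposited values are raw counts per small RNA. Per the methods and labels, the authors trimmed reads with cutadapt, listed UMI-tools, aligned with bowtie2 in a modified tRAX and counted reads against mature tRNAs, rRNA sequences, genomic rRNA repeats, piRNA loci and Ensembl small RNA genes of mm10. A read was counted on each feature it matched equally well, so that copies of a family share reads. Tool versions are not given in the sources used here. The tissue counts enter only beside flagged results, and the sperm counts were not used here.

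Counts were fitted with edgeR 4.0.16 (quasi-likelihood, TMM, filterByExpr with a minimum count of 10 and total of 15) in R 4.3.3 over all 18 fluid libraries, which share 1 estimate of the spread (common biological coefficient of variation 0.42). A call needed a Benjamini-Hochberg adjusted p under 0.05 and a log2 fold change beyond 1 in either direction. The SE is the absolute log2 fold change over the root of F. tRF counts were summed per anticodon and fragment type and fitted the same way. Log2 ratios of 5′ to 3′ sums (0.5 added to each) were fitted with limma 3.58.1. snRNA, Y, 7SK and 7SL copies were assigned with blastn 2.17.0 (at least 75% identity over 50% of the gene), which placed 332 of 432 entries. Shares of counts were compared by a 2-sided exact permutation test. Other scalings (DESeq2 1.42.0 size factors, library size alone, TMM without the tRF, tRNA and rRNA entries), the most counted entries alone, no filter, the 6 libraries alone, a replicate block, DESeq2 and leaving out each library were tried. The ratio with its alternatives, the copy assignment and the microRNA share without 7SL entries were added after the data were seen. On simulated counts of 2023 RNAs for the cauda against caput comparison, edgeR called 57% of 200 RNAs changed by a log2 of 2, each in the right direction, and 10 unchanged ones.

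RNAs were named by rule: the called RNAs of smallest p in each class and direction, the most counted RNAs of each class and anticodon sum, and listed families. The members and lists were chosen with earlier results of these data known. RNAs outside the rule (Arg, Trp and Val-TAC sums, Snord50b, pi-Foxo3.3 and others) were named after their values were seen. All fluid libraries were pools of 3 mice, and nothing says whether pools shared animals with other segments, so that p-values measure the spread between pools. Replicate chi-square values of 126 to 623 per degree of freedom showed that no 2 libraries were copies. Ensembl names matched GENCODE entries for 1053 of 1057 RNAs.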

Additional observations from a re-analysis of the deposited data

Results flagged for a closer look

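The change along the duct of 3 ratios of 5′ to 3′ tRFs differed between KO and WT fluid by limma's interaction test over 48 anticodons (KO minus WT, log2). The values were 2.64 for Ala-AGC (adjusted p = 0.027, limma), 2.66 for Thr-AGT (adjusted p = 0.0039, limma) and 2.62 for Tyr-GTA (adjusted p = 0.027, limma). In WT fluid the ratio of Thr-AGT changed by -0.17 and in KO fluid by 2.50.

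For 14 of the RNAs and sums named by rule, all WT cauda and caput libraries of tissue lay apart in the direction opposite to those of fluid. The share of all RNAs that did so is not given here, so that the 14 are listed as a description. The difference between tissue and fluid was not tested, and the tissue libraries were made by another protocol and scaled in their own table. In tissue, the log2 fold change from caput to cauda was 3.31 for 28S_rRNA_1 and 3.37 for 28S_rRNA_2, 4.82 for SSU_mito, 3.35 for pi-Foxo3.2, 3.37 for pi-Foxo3.3, 1.07 for Rn7sk, 1.03 for full-length tRNA-Gly-TCC-1, 1.76 for SeC-TCA 3′ tRFs and 0.38 for Met-CAT 5′ tRFs, all of which were lower in cauda than in caput fluid. It was -1.21 for Gm25687, -0.91 for Mir205, -0.27 for Leu-AAG 5′ tRFs, -0.25 for the other Val-AAC fragments and -0.41 for the other Val-CAC fragments, all higher in cauda fluid.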

How the results depend on the processing

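Of the alternatives for the named RNAs, sums and ratios, 1459 values stayed on the same side of the call threshold, 128 were no longer called and 16 became called. Values that were not called could change sign. When 1 library was left out, the log2 fold change of Rnu1a1 ran from -0.30 to 0.50 and that of Mir21a from -0.11 to 0.61. With TMM factors from other RNAs, 313 RNAs were higher and 192 lower, 219 and 150 among sums, and the median log2 fold change was 0.21 for all RNAs, 0.58 for microRNA, -0.45 for snRNA, -0.13 for snoRNA, 0.68 for 3′ tRFs, -0.64 for genic and 1.18 for intergenic piRNA loci. With the most counted entry of each rRNA type, anticodon and fragment type alone, 155 were higher and 92 lower of 1318, and these medians were 0.17, 0.72, -0.34, 0.029, 0.68, -0.51 and 1.25. With these entries, 10 ratios rose and 14 fell. With the 6 libraries alone, 191 RNAs and 143 sums were lower and the snoRNA median was -0.19. The genic piRNA median was -0.82 with DESeq2 size factors and -0.83 without the filter. The split of calls was 253 higher and 268 lower with DESeq2 size factors, 277 and 295 by DESeq2, and 207 and 220 without the filter. The KO minus WT difference had 1 RNA higher without the filter and 1 with the replicate block, and 16 higher and 7 lower by DESeq2.

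Leaving out 1 library gave 107 to 194 RNAs higher and 147 to 345 lower, 75 to 137 and 105 to 278 among sums, 0 to 1 and 0 for the KO minus WT difference, and 1 to 9 ratios higher and 11 to 14 lower. Medians then ran from -0.26 to 0.10 for all RNAs, 0.17 to 0.64 for microRNA, -0.86 to -0.32 for snRNA, -0.52 to -0.16 for snoRNA, -2.86 to -1.51 for misc_RNA, -0.22 to 0.27 for 5′ tRFs, 0.05 to 0.41 for 3′ tRFs, 0.14 to 0.63 for other tRFs, -1.09 to -0.70 for genic and 0.69 to 1.09 for intergenic piRNA loci, 0.58 to 1.09 for 28S repeats and -0.22 to 0.35 for 5S repeats. Differences of shares (cauda minus caput, percentage points) ran from -0.236 to 0.992 for 5S repeats, -1.89 to 0.109 for snRNA, -3.32 to 0.217 for 3′ tRFs, 4.65 to 7.02 for 5′ tRFs, 0.370 to 2.002 for other tRFs, -5.03 to -3.98 for the 28S sequence, 0.371 to 0.596 for 28S repeats, 0.176 to 0.295 for the 18S sequence, -0.754 to -0.584 for microRNA and -1.20 to -0.844 for misc_RNA. The first 3 reversed, without cauda library 1 (5S repeats, 3′ tRFs) or 3 (snRNA), and the cause was not tested.

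Replicate numbers were not taken as pairs. In their deviations from the group means, same-numbered caput and cauda libraries correlated by 0.108, 0.144 and 0.0969. Those of unlike number correlated by -0.215 to 0.111. With 3 libraries per group these values cannot tell whether same-numbered pools came from the same mice. With the replicate block, 197 RNAs were higher and 319 lower, 5 ratios rose and 11 fell, and the ratios of Ala-AGC (-1.42) and Leu-AAG (1.19) were not called. At the depth of these libraries, RNAs of a few counts, such as Mir196a-1, give only a direction.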
